A study of Homo sapiens with 5 samples.

Results

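Cultures of 2 EZH2 inhibitor-resistant (EIR) clones, treated or not treated with the EZH2 inhibitor GSK126, were compared. The comparison used 4 RNA-seq libraries, of the 5 libraries in the series. EIR clones 3 and 4 were derived from TOV21G, an ovarian clear cell carcinoma line, by stepwise culture in 5, 10, 15 and 20 uM GSK126 and picked once the cells were stable at the last concentration. For either clone there is 1 untreated and 1 GSK126-treated library, paired by the clone number and treatment in the labels. The fifth library, from parental TOV21G cells, enters no comparison here and is shown only for reference. All libraries were made from total RNA of cells grown in the same medium. The labels give neither the GSK126 concentration nor the duration for the treated cultures, nor how long the untreated cultures had been off the drug. They also do not say whether treated cultures were kept on the drug or returned to it, so exposure and withdrawal cannot be told apart. With 1 library per condition and clone, the difference that both clones share is the only replicated quantity, and its p-values measure the spread between these libraries.

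Polycomb repressive complex 2 (PRC2) keeps developmental genes off through methylation of histone H3 (the H3K27 mark). EZH2 is its methyltransferase, and GSK126 competes there with the methyl donor S-adenosylmethionine. TOV21G carries inactivating mutations in ARID1A, which belongs to the SWI/SNF chromatin remodeler, and cells with such mutations are sensitive to EZH2 inhibition. The comparison describes how expression differs with and without the drug in cells selected for growth in it. No parental library is labelled as GSK126-treated, so the response before selection was not measured.

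Total estimated counts ranged from 25479238 to 30764963 per library, and 11465 of 30476 genes averaged 100 normalized counts or more over the 4 libraries (called expressed genes from here on). Normalized counts are counts divided by a size factor per library and are compared within a gene, since they are not scaled by length. Among TOV21G and clear cell markers, PAX8 had 3031 to 4446 counts and SPP1 20111 to 39892 counts in the 4 libraries, while NAPSA had 4 to 53. Of 12 markers of other cell types measured, ACTA2 had 348 to 675 counts, while PTPRC had 2 to 15, CDH5 4 to 10 and COL1A1 13 to 71, and all except ACTA2 stayed below the limit for expressed genes. The untreated clone 4 library stood apart. Small structural RNAs took 8.78% of its counts against 4.68% to 5.12% in the other 3 libraries, and spliceosomal snRNAs took 3.49% against 0.381% to 0.481%. Each clone 4 value below rests on that library, and the clone 3 value is given beside it. In bulk RNA, a change in the mix of cells within a clone and a change in RNA per cell cannot be told apart.

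EZH2 RNA itself was level between untreated and treated cells of each clone: 2589 normalized counts in untreated and 2601 in treated clone 3, and 3301 and 3208 in clone 4. Its log2 fold change was -0.02 (SE 0.173), and its sign flipped with the scaling of the libraries (0.06 with scaling to total counts).

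Only 4 genes passed the test of treatment in the fit that pairs the libraries by clone (DESeq2, adjusted p under 0.05): VGF, GPNMB and IGFBP4 rose and AMIGO3 fell in both clones. They are 0.0134% of the 29847 genes tested. At an unadjusted p under 0.05 there were 282 genes, 0.945% of those tested, 212 higher and 70 lower in treated cells. With edgeR and the clone block the share was 4.27% of 16616 genes. Both shares are below the limit of 0.05 itself, but edgeR also leaned to one side, with 556 genes higher and 153 lower. With 1 residual degree of freedom, whether small p-values were in excess cannot be read from these counts.

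VGF encodes a secreted neuropeptide precursor that is stored in dense-core granules of neurons and endocrine cells. VGF (chr7:100805790-100808850, hg19, minus strand) had 34.5 normalized counts in untreated and 143 in treated clone 3, and 114 in untreated and 671 in treated clone 4. Both treated libraries lay above both untreated ones, although the untreated level of clone 4 was close to the treated level of clone 3. The log2 fold change was 2.33 (SE 0.357, DESeq2 adjusted p = 1.02e-06), with a log2 ratio of 2.03 in clone 3 and 2.55 in clone 4. The quasi-likelihood test of edgeR with the clone block gave VGF an adjusted p of 0.0775. How many expressed genes separate treated from untreated libraries in this way was not counted, here or for the genes below.

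GPNMB is a glycoprotein of melanosomes and lysosomes and a known target of the MiT/TFE transcription factors. At chr7:23275586-23314727 (hg19, plus strand), its level was 275 normalized counts in untreated and 726 in treated clone 3, and 529 and 1325 in clone 4, again with both treated libraries above both untreated ones. The log2 fold change was 1.36 (SE 0.229, DESeq2 adjusted p = 2.74e-05), almost the same in clone 3 (1.40) and clone 4 (1.32). With edgeR its adjusted p was 0.0775.

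IGFBP4 binds insulin-like growth factors outside the cell and limits their access to receptors. Located at chr17:38599702-38613977 (hg19, plus strand), it went from 43.0 to 125 normalized counts in clone 3 and from 136 to 496 in clone 4, so that the treated level of clone 3 remained below the untreated level of clone 4. Within each clone the treated library was higher, and the log2 fold change was 1.72 (SE 0.369, DESeq2 adjusted p = 0.0236). The edgeR adjusted p was 0.272. For reference, parental cells had 89.5 normalized counts of VGF, 635 of GPNMB and 154 of IGFBP4.

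AMIGO3, a cell adhesion molecule with leucine-rich repeats, had the largest change of the 4. Its level was 245 in untreated and 10.8 in treated clone 3, and 336 and 13.7 in clone 4 with both treated libraries far below both untreated ones. The log2 fold change was -4.56 with an SE of 0.488 (DESeq2 adjusted p = 2.84e-16). It was also the only gene called by edgeR with the clone block, with an adjusted p of 0.0115. AMIGO3 lies at chr3:49754262-49757117 (hg19, minus strand) inside the annotated span of GMPPB (chr3:49754277-49761406, same strand), so reads can belong to either gene and the estimate divides them. GMPPB, an enzyme of GDP-mannose synthesis named here after its values were seen, was 756 in untreated and 1025 in treated clone 3, and 558 and 818 in clone 4. The summed counts of both genes had log2 ratios of 0.05 in clone 3 and -0.10 in clone 4. The locus as a whole was thus close to level, and whether the division of reads between the overlapping genes differed was not tested. RNF123, which overlaps both on the opposite strand, had log2 ratios of -0.16 and -0.08.

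**Figure D1:**
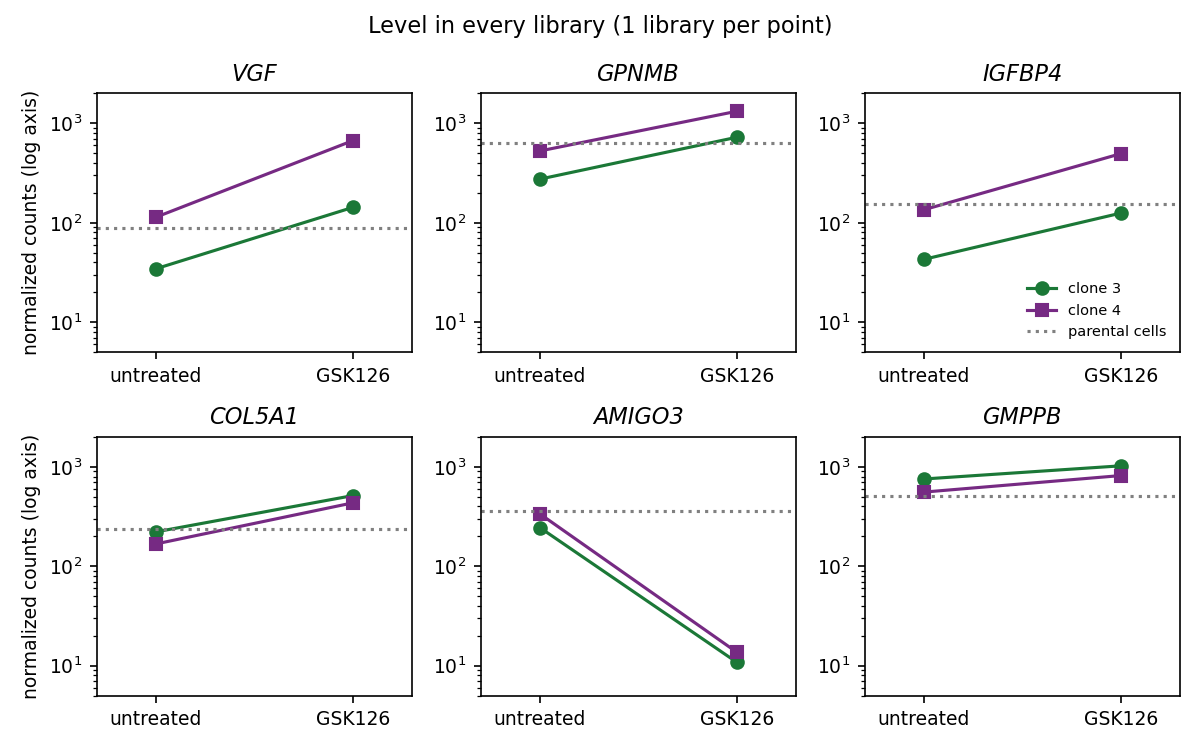
Normalized counts (log axis) in untreated and GSK126-treated libraries of EIR clone 3 (circles) and clone 4 (squares), 1 library per point, with the level in parental cells as a dotted line. VGF, GPNMB, IGFBP4 and COL5A1 were higher in the treated library of each clone, AMIGO3 dropped to 10.8 and 13.7, and GMPPB, which overlaps AMIGO3, was 1025 and 818 in treated cells.

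The promoters of the 3 genes that rose are shown so that they can be compared. The windows run from 250 bases before to 50 after the RefSeq start (GRCh38.p14), 5′ to 3′ on the gene's strand. VGF lies at chr7:101165520-101165819 (minus strand), GPNMB at chr7:23246525-23246824 (plus strand) and IGFBP4 at chr17:40443200-40443499 (plus strand). Capitals mark a cyclic AMP response element (TGACGTCA) in VGF and an M-box (TCATGTGA, here on the reverse strand) in GPNMB.
VGF: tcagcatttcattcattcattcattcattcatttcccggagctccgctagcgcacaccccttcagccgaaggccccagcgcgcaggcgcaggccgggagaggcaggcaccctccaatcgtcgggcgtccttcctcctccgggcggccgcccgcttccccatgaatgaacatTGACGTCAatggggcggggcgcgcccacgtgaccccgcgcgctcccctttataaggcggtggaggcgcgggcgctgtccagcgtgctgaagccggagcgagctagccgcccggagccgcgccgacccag
GPNMB: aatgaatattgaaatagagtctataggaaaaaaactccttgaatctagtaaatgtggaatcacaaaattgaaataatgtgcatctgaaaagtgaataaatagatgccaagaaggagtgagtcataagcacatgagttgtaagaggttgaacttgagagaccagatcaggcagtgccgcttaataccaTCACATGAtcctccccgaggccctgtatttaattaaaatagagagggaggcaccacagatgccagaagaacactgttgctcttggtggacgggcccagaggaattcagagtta
IGFBP4: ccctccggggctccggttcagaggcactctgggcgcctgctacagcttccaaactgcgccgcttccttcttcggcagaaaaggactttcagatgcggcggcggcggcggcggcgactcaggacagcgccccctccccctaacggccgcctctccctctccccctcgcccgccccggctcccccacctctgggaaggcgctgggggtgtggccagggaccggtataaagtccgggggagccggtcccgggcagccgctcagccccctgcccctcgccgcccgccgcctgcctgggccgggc
The element in VGF starts at position -79 and the M-box in GPNMB at position -63 relative to the start. Over all 27305 RefSeq promoters of this length, 1.98% hold TGACGTCA and 1.01% hold TCATGTGA on either strand. These motifs were searched after the 3 genes were known. Neither they nor a sterol regulatory element (TCACNCCAC), an E-box of lysosomal promoters (TCACGTGA) or an ATF4 element (TTGCATCA) was found in the IGFBP4 window.

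Beyond the called genes, agreement between the clones was slight. The log2 ratio of treated to untreated (pseudocount 0.5) had an SD of 0.23 over expressed genes in clone 3 and 0.38 in clone 4, and Pearson's r between the clones was 0.04 across genes. Genes are not independent replicates, and this value has no test. Both clones were higher for 2708 expressed genes (23.6%), both lower for 2910 (25.4%) and opposite for 5843 (51%).

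**Figure D2:**
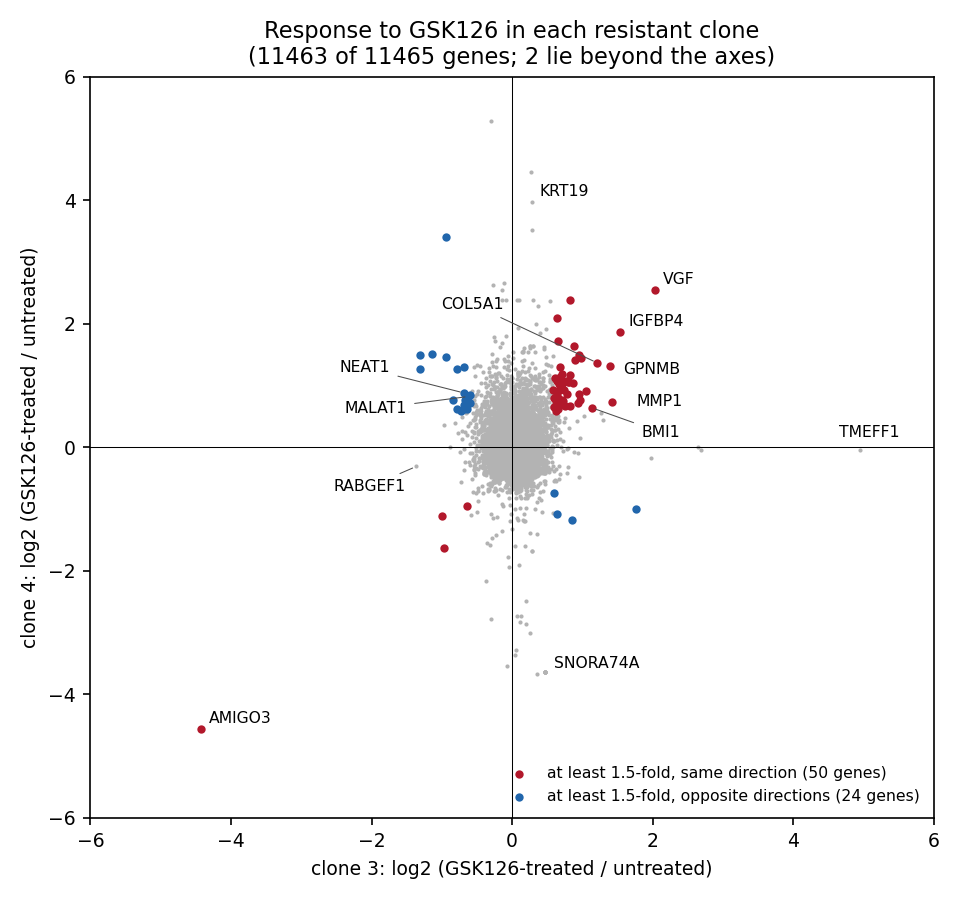
Log2 ratio of treated to untreated in clone 3 (x axis) and clone 4 (y axis) for expressed genes, 1 point per gene. Red points are the 50 genes at least 1.5-fold apart in the same direction in both clones and blue points the 24 at least 1.5-fold apart in opposite directions, with VGF, GPNMB and IGFBP4 at the upper right and AMIGO3 farthest to the lower left, and 2 genes lie beyond the axes.

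A set of 46 expressed genes was at least 1.5-fold higher in treated cells of both clones (0.401% of expressed genes). Against these, 4 were at least 1.5-fold lower in both (0.0349%) and 24 at least 1.5-fold apart in opposite directions (0.209%). Each clone by itself also had more genes higher than lower at this limit, 103 against 46 in clone 3 and 666 against 156 in clone 4. Of the 46 genes higher in both clones, 44 are protein coding, a share not counted over all expressed genes. In DESeq2, 39 had an unadjusted p under 0.05, where 1.55% of expressed genes were higher at that limit, and 3 passed the adjusted threshold. The 46 were chosen by their ratios in the same 4 libraries, so these p-values are no separate support for the set. The last gene inside the limit had a log2 ratio of 0.586 in its weaker clone and the first outside it 0.585. Clone 3 had the higher untreated level for 27 of the 46, by at least 3-fold for 13, while clone 4 was at least 3-fold higher for 6. These shares were not counted over all expressed genes, and a gene could reach the minimum mean through 1 clone alone. The median GC content of their transcripts was 55% against 48.2% over expressed genes.

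COL5A1, a chain of fibrillar type V collagen, was next to the called genes. It had 222 normalized counts in untreated and 515 in treated clone 3, and 168 and 435 in clone 4, so that both treated libraries lay above both untreated ones. Its log2 fold change was 1.29 (SE 0.292) with a DESeq2 adjusted p of 0.0587, and it was called with scaling to total counts (adjusted p = 0.0202) and when only genes that reach 10 counts in every library were tested (adjusted p = 0.0061).

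H19, an imprinted long non-coding RNA of fetal tissues, had 33.6 and 67.1 normalized counts in untreated and treated clone 3 and 183 and 498 in clone 4 (DESeq2 unadjusted p = 0.00106). AJAP1, an adherens junction protein, had 247 and 512 in clone 3 and 58.1 and 110 in clone 4. LYPD1, a GPI-anchored modulator of nicotinic receptors, had 121 and 236 in clone 3 and 24.5 and 69.5 in clone 4. None of these passed the adjusted threshold, and in each the distance between the clones was larger than the distance between treated and untreated cells.

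ELFN2, a postsynaptic leucine-rich repeat protein, had 166 and 309 normalized counts in clone 3 and 16.3 and 44.2 in clone 4. ZNF516, a zinc finger protein, had 119 and 217 in clone 3 and 41.8 and 86.4 in clone 4. PRRX1, a homeobox factor of mesenchyme, is among the 10 genes most strongly higher in both clones, but it had 148 and 274 only in clone 3, against 0 and 1 count in clone 4. For PRRX1 and for ALDH1A3, with 0 and 2 counts in clone 4, clone 4 carries no information on a change.

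Some of the 46 genes had untreated levels that were not far apart in the clones. They were picked here after their values were seen. BMI1, a core subunit of polycomb repressive complex 1 that acts on the mark laid down by PRC2, had 760 and 1667 normalized counts in untreated and treated clone 3 and 691 and 1078 in clone 4 (DESeq2 adjusted p = 0.284). It shares reads with the readthrough gene COMMD3-BMI1 on the same strand, and their summed counts had log2 ratios of 0.91 and 0.54. PMEPA1, a TGF-beta target that restrains SMAD signaling, had 712 and 1167 in clone 3 and 663 and 1134 in clone 4. SPNS2, the exporter of sphingosine-1-phosphate, had 1119 and 1756 in clone 3 and 1454 and 2244 in clone 4. In all 3 of these genes both treated libraries were above both untreated ones, a pattern whose share over all expressed genes was not counted. The DESeq2 adjusted p missed the threshold in each (0.779 for PMEPA1 and 0.892 for SPNS2). MMP1, an interstitial collagenase, had 227 and 608 in clone 3 and 156 and 259 in clone 4, so that its treated levels differed more between the clones.

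On the lower side the genes were few, and most of them overlap or resemble another gene. ENSG00000254859, a long non-coding RNA, had 311 and 155 normalized counts in untreated and treated clone 3 and 490 and 226 in clone 4 (log2 fold change -1.06, DESeq2 adjusted p = 0.779). ZNF321P, a transcribed pseudogene that overlaps the readthrough gene ZNF816-ZNF321P, had 289 and 147 in clone 3 and 223 and 71.6 in clone 4. Its counts summed with the readthrough gene still had log2 ratios of -0.87 and -1.47. ENSG00000264772, which overlaps EIF4A1 and small nucleolar RNAs on the same strand, had 197 and 126 in clone 3 and 276 and 142 in clone 4. The next in order were SLX1B, which has a near-identical copy in SLX1A (log2 ratios -0.72 and -0.57 in clones 3 and 4), SCARNA6 (-0.58 and -1.09), IRAK2 (-0.55 and -0.73), LINC01508 (-0.57 and -0.52), RPL18AP3 (-0.51 and -0.75) and SNORD8 (-0.50 and -1.04). SCARNA6, SNORD8 and RPL18AP3 lie within the host genes ATG16L1, CHD8 and TXNRD1 on the same strand, whose own log2 ratios were between -0.38 and 0.09. IRAK2, a kinase of interleukin-1 receptor signaling, had 191 and 130 in clone 3 and 94.8 and 56.9 in clone 4.

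Gene lists were then compared with all expressed genes, whose median log2 ratio was 0.02 in clone 3 and -0.04 in clone 4. A list is described by how many expressed members were higher or lower in both clones, beside 23.6% and 25.4% for all expressed genes, and by its median log2 ratio in each clone. At an unadjusted p under 0.05, 1.55% of expressed genes were higher and 0.262% lower in treated cells. Scaling to total counts moved all clone 4 ratios up by 0.16 and all clone 3 ratios down by 0.01, so that the medians of all expressed genes became 0.01 and 0.12. List medians below are read against the median of all expressed genes under the same scaling.

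Extracellular matrix and growth factor lists leaned higher. Of 15 expressed collagen genes, 10 were higher and 1 lower in both clones, with a median of 0.22 in clone 3 and 0.30 in clone 4. COL5A1 and COL6A1 were the 2 members at least 1.5-fold higher in both. COL6A1, a chain of microfibrillar type VI collagen, had 163 and 284 normalized counts in untreated and treated clone 3 but only 19.4 and 41.1 in clone 4. The basement membrane chains COL4A1 and COL4A2, both abundant here, had log2 ratios of 0.04 and -0.12 and of 0.00 and -0.04. For the 9 collagen genes averaging 300 normalized counts or more, the medians were 0.04 and 0.01.

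For the insulin-like growth factor axis, 7 of 9 expressed members were higher and none was lower in both clones, with medians of 0.24 and 0.30. Its receptors were IGF1R, which had 115 and 142 normalized counts in untreated and treated clone 3 and 358 and 783 in clone 4 (DESeq2 unadjusted p = 0.0193), and the insulin receptor INSR, with log2 ratios of 0.28 and 0.35. Among the binding proteins, IGFBP5 had log2 ratios of 0.25 and 0.25 and IGFBP3 of 0.24 and 0.30, while IGFBP7 had 0.08 and -0.49. IGFBP4 was the single called member. The related PI3K and FOXO list had 11 of 19 expressed members higher and 1 lower in both clones (medians 0.12 and 0.12). IRS2, the adaptor that couples insulin and IGF receptors to PI3K, had 291 and 482 in clone 3 and 476 and 804 in clone 4 (DESeq2 unadjusted p = 0.00306). Its treated level in clone 3 was about the same as its untreated level in clone 4. The transcription factor FOXO1 had log2 ratios of 0.24 and 0.54.

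Developmental transcription factors outside the HOX clusters, many of which are polycomb targets in other tissues, had 16 of 26 expressed members higher and 2 lower in both clones (medians 0.15 and 0.25), out of 79 listed. FOXF2, a forkhead factor of mesenchyme, had 218 and 342 normalized counts in untreated and treated clone 3 and 131 and 229 in clone 4. The homeobox factors EN2 and PITX1 had log2 ratios of 0.34 and 0.65 and of 0.24 and 0.52, and TBX3 had 0.28 and 0.29. HOX genes did not share this lean, with 1 of 19 expressed members higher and 5 lower in both clones and medians of -0.16 and 0.01. HOXA10 had log2 ratios of -0.24 and -0.20, and HOXA2 of -0.25 and -0.50.

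Smaller lists on the same side were YAP targets (6 of 12 higher and none lower in both clones, medians 0.15 and 0.16), NOTCH genes (4 of 5 and none, 0.11 and 0.13), liver X receptor targets (4 of 5 and none, 0.08 and 0.04, but 2 of 5 with TMM factors) and the mesenchymal state (5 of 8 higher and 1 lower, 0.22 and 0.08). AXL, a receptor tyrosine kinase under YAP control, had log2 ratios of 0.26 and 0.21. The epithelial list had 3 of 5 higher and none lower in both clones (medians 0.28 and 0.04), but KRT19 and EPCAM were at 0 counts in untreated clone 4, and with these at their bound against 3 counts the clone 4 median was 0.00. MHC class I genes had medians of 0.13 and 0.06 with 5 of 13 higher and 2 lower in both clones. HLA-B had log2 ratios of 0.20 and 0.48 and HLA-C of 0.14 and 0.38. In MAPK output genes (6 of 16 higher, 2 lower, 0.01 and 0.17), the cyclin CCND1 had 13655 and 16673 normalized counts in clone 3 and 5801 and 8671 in clone 4 (DESeq2 unadjusted p = 0.0092), and the phosphatase DUSP4 had log2 ratios of 0.37 and 0.33.

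**Figure D3:**
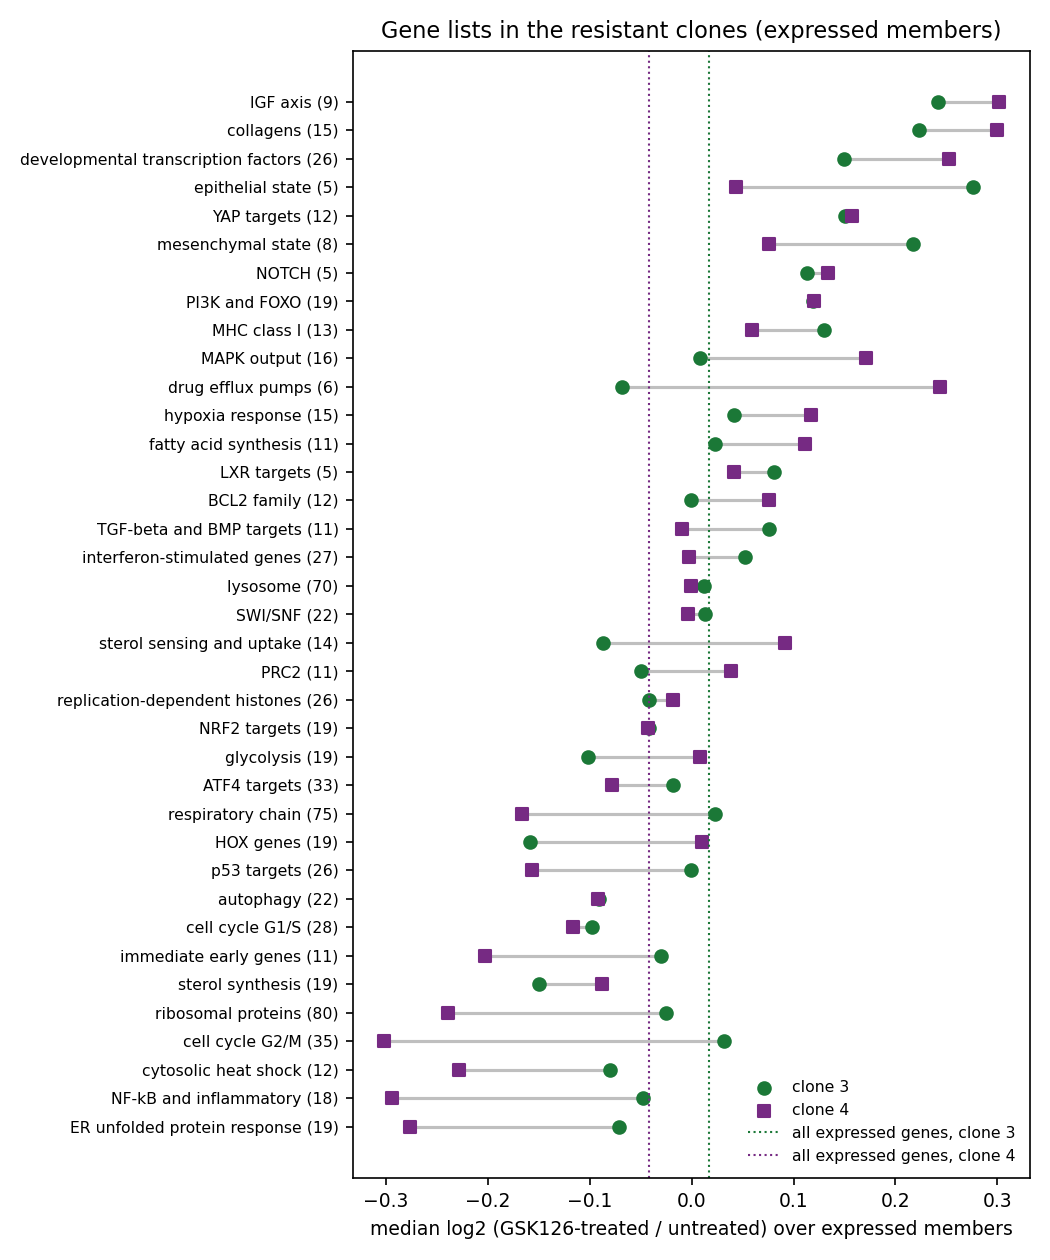
Median log2 ratio of treated to untreated over the expressed members of each gene list (number in brackets), in clone 3 (circles) and clone 4 (squares), with the median of all expressed genes in each clone dotted. Collagens, the IGF axis and developmental transcription factors lay high and unfolded protein response, heat shock and sterol synthesis lists lay low in both clones, while G2/M genes had 0.03 in clone 3 and -0.30 in clone 4.

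Sterol synthesis enzymes lay on the lower side in both clones. Of its 19 expressed enzymes, none was higher in both clones and 14 were lower in both (medians -0.15 and -0.09). ACAT2, which joins acetyl-CoA units at the entry of the pathway, had 1430 and 1212 normalized counts in untreated and treated clone 3 and 1110 and 700 in clone 4 (DESeq2 unadjusted p = 0.0366), the only member below 0.05. HMGCS1, the HMG-CoA synthase, had 5776 and 5077 in clone 3 and 2835 and 2140 in clone 4, and squalene epoxidase SQLE had 2380 and 2032 in clone 3 and 2607 and 1892 in clone 4. The methyl sterol oxidase MSMO1 had log2 ratios of -0.20 and -0.26. Along the pathway, 6 of 7 enzymes up to farnesyl diphosphate and 8 of 12 from squalene to cholesterol were lower in both clones. With scaling to total counts the clone 4 median became 0.07, below the 0.12 of all expressed genes. The count lower in both clones became 5 of 19, beside 1589 of 11465 expressed genes under that scaling. With the GC trend removed it was 12 of 19, beside 3078 of 11279 expressed genes. Genes of sterol sensing and uptake were split (5 of 14 higher and 5 lower in both, medians -0.09 and 0.09). Fatty acid synthesis had 5 of 11 higher and 1 lower in both clones (medians 0.02 and 0.11), and there the stearoyl-CoA desaturase SCD had 2878 and 3547 in clone 3 and 4091 and 6524 in clone 4 (DESeq2 unadjusted p = 0.00609).

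**Figure D4:**
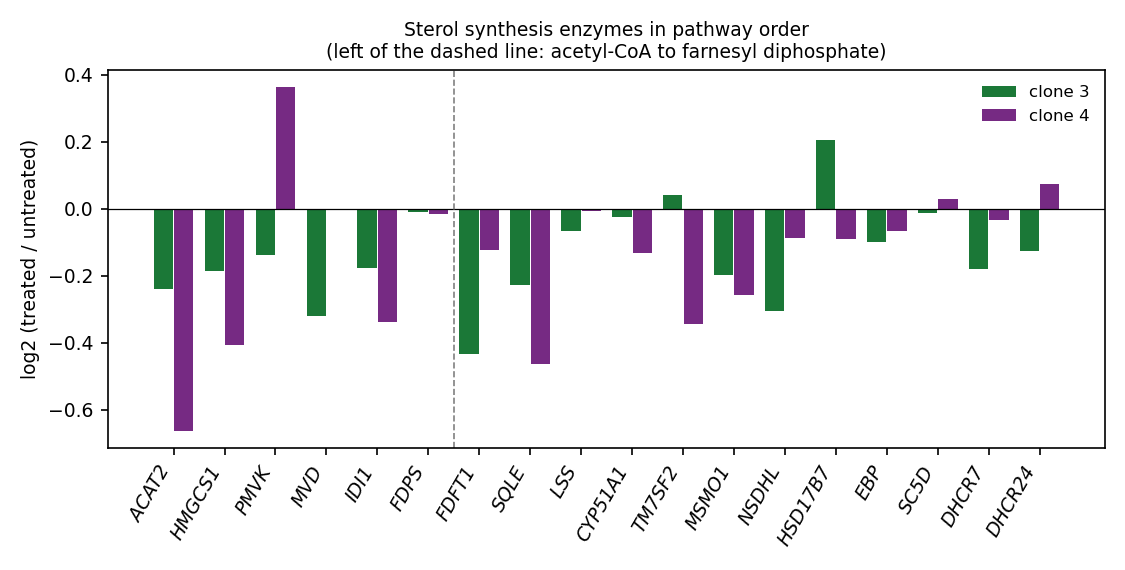
Log2 ratio of treated to untreated for 18 of the 19 expressed sterol synthesis enzymes in pathway order, clone 3 and clone 4 side by side (bars start at 0, 1 library per condition). In 13 of the enzymes shown both bars are below 0, led by ACAT2 at -0.24 and -0.66 and SQLE at -0.23 and -0.46.

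Replication genes of G1/S had 19 of 28 expressed members lower and 1 higher in both clones (medians -0.10 and -0.12), with none past an unadjusted p of 0.05. UNG, which removes uracil from DNA, had log2 ratios of -0.28 and -0.14, the replicative helicase subunit MCM5 -0.21 and -0.14, and the histone mRNA binding protein SLBP -0.17 and -0.33. Scaled to total counts, the clone 4 median was 0.05 and 6 of 28 were lower in both, beside 0.12 and 1589 of 11465 for all expressed genes. Mitotic genes of G2/M differed between the clones, with medians of 0.03 in clone 3 and -0.30 in clone 4 and 10 of 35 lower in both. Replication-dependent histones had 3 of 26 higher and 6 lower in both clones (-0.04 and -0.02).

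Chaperone lists also lay lower. Of 12 expressed cytosolic heat shock genes, 9 were lower and none higher in both clones (medians -0.08 and -0.23). HSPA1B, an inducible HSP70, had 4440 and 3588 normalized counts in untreated and treated clone 3 and 4190 and 3174 in clone 4 (DESeq2 unadjusted p = 0.0361). HSP90AA1 had log2 ratios of -0.16 and -0.23. For the unfolded protein response of the endoplasmic reticulum, 9 of 19 were lower and 1 higher in both clones (-0.07 and -0.28). HSPA5, the luminal HSP70, had 10131 and 7356 in clone 3 and 11021 and 9772 in clone 4, PDIA4, a disulfide isomerase, had log2 ratios of -0.22 and -0.40, and the transcription factor XBP1 -0.18 and -0.43. Both medians stayed below that of all expressed genes with scaling to total counts (clone 4 medians -0.07 for heat shock and -0.11 for the unfolded protein response, against 0.12). Targets of ATF4 had 4 of 33 higher and 15 lower (-0.02 and -0.08), and autophagy genes 3 of 22 and 10 (-0.09 and -0.09).

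Ribosomal protein genes had 43 of 80 expressed members lower and 1 higher in both clones, with medians of -0.03 in clone 3 and -0.24 in clone 4, and nuclear-encoded respiratory chain genes 20 of 75 and 4 (0.02 and -0.17). RPS27L had log2 ratios of -0.18 and -0.53 and UQCRH of -0.19 and -0.35. In clone 4 short and GC-poor transcripts had lower ratios as a whole. The median log2 ratio in clone 4 went from -0.19 in genes below 40% GC to 0.06 in those at 60% or more, and from -0.17 below 500 bases to 0.04 at 3000 bases or more. Clone 3 went from 0.10 to 0.01 over the same GC range, with -0.03 in between. With the GC trend removed the ribosomal medians were -0.01 and -0.28. With the GC trend removed, the clone 4 median also became 0.20 for the IGF axis, 0.22 for collagens, 0.07 for YAP targets, -0.02 for MHC class I genes and -0.19 for the unfolded protein response. The part of length was not tested.

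**Figure D5:**
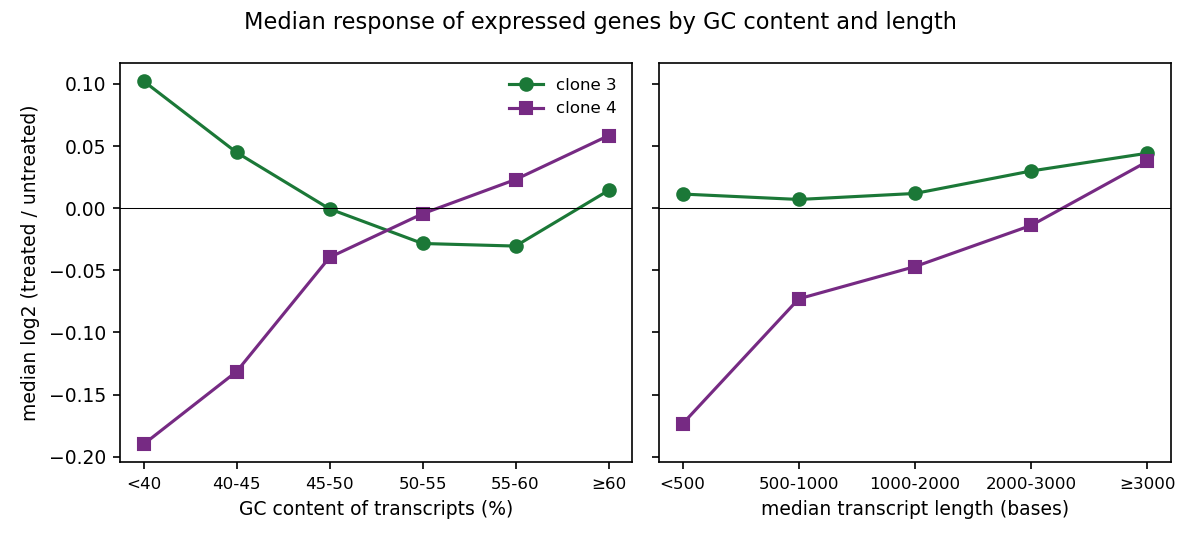
Median log2 ratio of treated to untreated over expressed genes by GC content (left) and length (right) of their transcripts, in clone 3 (circles) and clone 4 (squares). Clone 4 climbs from -0.19 to 0.06 with GC content and from -0.17 to 0.04 with length, whereas clone 3 starts at 0.10 in GC-poor genes and lies between -0.03 and 0.04 in every other bin.

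Inflammatory NF-kB targets had 8 of 18 expressed members lower and 1 higher in both clones (medians -0.05 and -0.29). TNF had 995 and 761 normalized counts in untreated and treated clone 3 and 106 and 81.1 in clone 4, and IL6 had 1211 and 976 in clone 3 and 162 and 106 in clone 4. No member passed an unadjusted p of 0.05 in DESeq2, and 2 were lower in edgeR, where 0.802% of expressed genes were lower and 3.51% higher at that limit. Immediate early genes had 5 of 11 lower and 2 higher (-0.03 and -0.20), and p53 targets 10 of 26 and 4 (0.00 and -0.16).

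Lysosomal genes lay close to all expressed genes. With GPNMB counted, 19 of 70 were higher and 16 lower in both clones, with medians of 0.01 and 0.00. FNIP2, a partner of folliculin in lysosomal nutrient sensing, had 356 and 542 normalized counts in untreated and treated clone 3 and 793 and 1172 in clone 4 (DESeq2 unadjusted p = 0.00999), and the proton pump subunit ATP6V1A had log2 ratios of 0.29 and 0.22. MITF, which binds the M-box, had -0.06 and -0.13. The E-box TCACGTGA is in 8 of 50 lysosomal promoters found (16%, against 1.04% of all promoters). The sterol regulatory element is in 1 of 12 promoters of sterol sensing and uptake genes, that of SREBF2, and in none of 14 of sterol synthesis genes (1.15% of all promoters), and the ATF4 element in 2 of 28 promoters of ATF4 targets (7.14% against 0.923%).

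Lists around the drug's target lay close to all expressed genes. PRC2 genes had 2 of 11 higher and 3 lower in both clones (medians -0.05 and 0.04), with SUZ12 at log2 ratios of 0.24 and 0.18. The H3K27 demethylase KDM6A had 0.03 and 0.22. SWI/SNF genes had 7 of 22 higher and 6 lower (0.01 and 0.00). SMARCD3 had log2 ratios of 0.25 and 0.64 and SMARCC1 of -0.10 and -0.39. In the BCL2 family, 3 of 12 were higher and 2 lower (0.00 and 0.08), and the anti-apoptotic member BCL2 had 584 and 686 normalized counts in clone 3 and 564 and 663 in clone 4 (DESeq2 unadjusted p = 0.322). Drug efflux pumps had 1 of 6 higher and none lower (-0.07 and 0.24), with ABCC2 at 0.06 and 0.52.

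The remaining lists were close to all expressed genes or too small to describe. Interferon-stimulated genes had medians of 0.05 and 0.00 (9 of 27 higher, 4 lower in both), TGF-beta and BMP targets 0.08 and -0.01 (5 of 11, 2), NRF2 targets -0.04 and -0.04 (4 of 19, 7) and glycolysis -0.10 and 0.01 (6 of 19, 8). Hypoxia response genes had 0.04 and 0.12 (6 of 15, 3). Among these lists FTH1, the ferritin heavy chain, had 37469 and 42763 normalized counts in untreated and treated clone 3 and 23900 and 48658 in clone 4 (DESeq2 unadjusted p = 0.00244), and the carbonic anhydrase CA12 had 910 and 1445 in clone 3 and 473 and 896 in clone 4 (DESeq2 adjusted p = 0.63). WNT targets had 2 of 4 higher and none lower in both (0.04 and 0.25), with DKK1 at log2 ratios of 0.68 and 0.13. Of the regulated secretion list only 3 of 9 were expressed (medians -0.11 and 0.08), and VGF was the single member at least 1.5-fold higher in both, while the processing enzyme CPE had -0.11 and -0.36. The 2 expressed metallothioneins were opposite in the clones (medians -0.07 and 0.12).

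More genes passed a 2-fold limit in clone 4 than in clone 3. At least 2-fold higher in treated cells were 16 expressed genes in clone 3 (0.14%) and 202 in clone 4 (1.76%), and at least 2-fold lower were 7 in clone 3 (0.0611%) and 58 in clone 4 (0.506%). These counts have no replicate check. Of the 58 in clone 4, 34 are small structural RNAs, with a median transcript length of 198 bases over the 58. Small structural RNAs as a list (46 expressed of 780) had medians of 0.10 in clone 3 and -1.40 in clone 4, and 10 had a lower level at an unadjusted p under 0.05 in DESeq2. RNU1-28P had 1670 and 2317 normalized counts in untreated and treated clone 3 but 42974 and 3458 in clone 4, and other U1 copies carry identical counts. RNVU1-9 and RNVU1-7 also share their counts. Such repeats are included in the 34, the 46 and the list medians, so these entries are not separate measurements. SNORA74A had 90.6 and 116 in clone 3 and 611 and 47.4 in clone 4. In both genes it was the untreated clone 4 library that lay apart from the other 3. RN7SK, the RNA that holds the elongation factor P-TEFb inactive, was lower in both clones, with 841134 and 638847 in clone 3 and 772730 and 572976 in clone 4 (DESeq2 unadjusted p = 0.0064), and its copy RN7SKP255 had log2 ratios of -0.49 and -0.71.

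In clone 4 the genes with the largest ratios were ENSG00000241962, UGT1A6 and KRT19, each at 0 counts in the untreated library and at 18, 10 and 7 counts in the treated one, while clone 3 had 190 to 1994 normalized counts of each in both libraries. Against a floor of 3 counts per library they were at least 6.2-fold, 3.45-fold and 2.41-fold higher in the treated library. Over 25 genes with at least 100 normalized counts in both clone 3 libraries and 0 counts in untreated clone 4, 18 were above 0 in treated clone 4, with 70 counts in all and a level of 0.745% of that in clone 3. Conversely, of 13 such genes at 0 in treated clone 4, 6 were above 0 in the untreated library, with 8 counts and 0.203% of the clone 3 level. The source of these few counts was not tested.

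Several of the clone 3 extremes overlap another gene on the same strand. TMEFF1 had 5.60 and 188 normalized counts in untreated and treated clone 3, but the readthrough gene MSANTD3-TMEFF1 had 136 and 0, and the sum of both had a log2 ratio of 0.41. BLOC1S5-TXNDC5, another readthrough gene, had 82.2 and 0 (at least 27.8-fold lower), whereas TXNDC5 itself had a log2 ratio of 0.12. GOLGA6L9, a member of a family of near-identical copies, had 0 and 179 in clone 3 (at least 64.1-fold higher) and 166 and 55.8 in clone 4. RP11-439A17.7, antisense to FAM72B, had 20.5 and 135 in clone 3. RABGEF1 had 289 and 112 in clone 3 and 609 and 492 in clone 4.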

How the data were processed

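RNA-seq libraries of EIR and parental TOV21G cells were made from total RNA with a stranded kit. Reads were aligned to hg19 with Bowtie2 and expected counts per Ensembl gene were estimated with RSEM (1.2.3 in the submitters' processing notes). The deposited values are the authors' estimated counts rounded to whole numbers; the annotation release and use of strand are not given in the sources used here. RSEM divides reads shared by overlapping or repeated genes, so counts of such genes are uncertain. Symbols, types and positions came from GENCODE release 44 on GRCh37, and 1273 identifiers had no match. Promoters came from RefSeq (GRCh38.p14). No column was left unmapped.

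Treated and untreated libraries were compared with DESeq2 1.42.0 in R 4.3.3 on all genes, with clone as a block, median-of-ratios size factors and Benjamini-Hochberg adjusted p under 0.05. The fit has 1 residual degree of freedom. Clones pair the libraries since each is 1 cell line, and deviations of same-clone libraries correlated at 0.864. edgeR 4.0.16 (quasi-likelihood) was the alternative. The parental library was put on the same scale and not fitted. Within-clone log2 ratios used a pseudocount of 0.5 and genes averaging 100 normalized counts or more, with limits of 1.5-fold in both clones and 2-fold in 1 clone. Fits and ratios were tested on simulated data.

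The 44 gene lists and the comparison were chosen with earlier results of these data known. Named genes were all called genes, the 10 most strongly higher and lower in both clones (by the smaller of both ratios), the 3 extremes in each clone and direction, up to 4 members per list by the same measure, and EZH2. COL4A1, COL4A2, MITF, IGFBP3, IGFBP7, GMPPB, ALDH1A3, overlapping partners, the markers and those said so in the text were chosen after their values were seen. Alternatives were other scalings, filters, pseudocounts and tests, the GC trend removed, and each library left out. Counts carry counting error on top of the spread between libraries. A few genes of the lists are not reported here by name.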

Additional observations from a re-analysis of the deposited data

Results flagged for a closer look

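The following effects went in opposite directions in the 2 clones. With 1 library per condition and clone, none of these differences was tested.

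Under GSK126, 24 expressed genes were at least 1.5-fold apart in opposite directions in clones 3 and 4. The nuclear long non-coding RNAs MALAT1 and NEAT1, named after their values were seen, are among them. MALAT1 had log2 ratios of -0.61 in clone 3 and 0.83 in clone 4, from 146972 to 96207 and from 113152 to 200469 normalized counts. NEAT1, the scaffold of paraspeckles, had -0.68 and 0.88, from 5306 to 3309 and from 2775 to 5108 normalized counts. Small structural RNAs had a median log2 ratio of 0.10 in clone 3 and -1.40 in clone 4, where the untreated library held the high level. The readthrough gene BLOC1S5-TXNDC5 had -7.37 and 1.1 and GOLGA6L9 8.49 and -1.56. The clone 3 values of both rest on a library at 0 counts and on the pseudocount of 0.5.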

How the results depend on the processing

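The count of 4 called genes was the most dependent on the fit. It was 4 with TMM factors and with independent filtering off, and 6 with scaling to total counts and with at least 10 counts in every library. It dropped to 1 without the replicate block, to 1 with edgeR and the replicate block, and to 0 with edgeR and no replicate block, where 86 genes had an unadjusted p under 0.05. Leaving out 1 library, which requires a fit without the block and assumes that a lone library varies like the others, gave 1 to 25 calls, with 25 when untreated clone 3 was left out and 1 when treated clone 4 was left out. VGF, GPNMB and IGFBP4 kept their direction in every fit and were called in none of the leave-one-out fits, in neither edgeR fit and not without the block, with log2 fold changes of 0.95 to 3.55, 0.86 to 1.89 and 0.49 to 2.85 when 1 library was left out. AMIGO3 missed the threshold only with edgeR and no block (-4.54).

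Counts past a fold limit followed the minimum level. At a mean minimum of 30, 132 genes were at least 1.5-fold higher and 22 lower in both clones, 99 were opposite, and 108 in clone 3 and 607 in clone 4 were at least 2-fold apart. At a mean minimum of 300 these became 14, 0, 5, 7 and 106. Scaling to total counts, TMM factors, a pseudocount of 5, the GC trend removed and a filter of at least 10 counts in a library of each clone, the last chosen after seeing the data, moved none of these counts by over 1.5 times.

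EZH2 changed sign with scaling to total counts (0.060). Leaving out 1 library in a fit without the block also set clone differences against treatment, and gave ranges that include 0 for EZH2 (-0.18 to 0.16, with 0.11 without treated clone 3), PRRX1 (-6.16 to 9.53, with -0.11 without untreated clone 4), ELFN2 (-1.06 to 3.45), AJAP1 (-0.49 to 2.43), LYPD1 (-0.086 to 2.65) and H19 (-0.69 to 3.07). Of all alternative fits of the named genes, 197 kept direction and side of the threshold, 22 kept the direction and lost the call, 2 gained a call (COL5A1) and 9 changed direction. Medians of the sterol synthesis, G1/S, ATF4 and NRF2 lists moved toward or past 0 in clone 4 with scaling to total counts, as did the median of all expressed genes. Of 42 lists without the markers, the clone 4 median changed sign in 11 with scaling to total counts, 4 with the GC trend removed, 3 at each of the other mean minimums and 1 with at least 10 counts in a library of each clone, and in none with TMM factors or a pseudocount of 5. The clone 3 median changed sign in 3 lists with the GC trend removed, 2 at a mean minimum of 30 and 1 at 300. Liver X receptor targets had medians of 0.26 and 0.16 at a mean minimum of 30.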
